A study of Arabidopsis thaliana with 36 samples.

Results

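The comparison described here asks what the loss of SWAP1 adds to RNA splicing in Arabidopsis thaliana seedlings that already lack SFPS and RRC1. It sets 3 libraries of the mutant sfpsrrc1 (genotype sfps-2rrc1-3) against 3 libraries of swap1sfpsrrc1 (genotype swap1-1sfps-2rrc1-3), so both groups carry the sfps-2 and rrc1-3 alleles and differ in swap1-1. Seedlings in both groups were 4 days old and had grown in the dark. They then spent 3 h in continuous red light of 7 µmol m-2 s-1 before whole seedlings were collected. The members are every row of the authors' deposited splicing table for this pair, which holds 1690 regions in 1242 loci, out of 44541 regions in the 9 splicing tables of the series that were read. Of 24197 annotated loci with an intron, 5.08% had a called region, 1.83% a called bin and 3.78% a called junction region. The series has 36 libraries of rRNA-depleted total RNA, 3 for each of 6 genotypes in darkness and in red light, with reads of 150 bp. The genotypes are the wild type (WT), labelled Col-0, and swap1, swap1sfps, swap1rrc1, sfpsrrc1 and swap1sfpsrrc1. Nothing in the labels states whether libraries of one genotype were grown apart. Values per library are not in the tables, so neither the spread between libraries nor the depth is known here. Each p-value below is the authors', over 3 libraries a side. The table of gene ontology terms for the same comparison is described near the end.

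Introns are removed by the spliceosome, which recognises a donor site at the start of an intron, a branch point near its end, and an acceptor site where it ends, usually the bases AG after a stretch rich in pyrimidines. SWAP1 has SURP domains, first described in the fly splicing regulator suppressor of white apricot. SFPS and RRC1 resemble the human proteins SPF45 and SR140, which associate with the U2 small nuclear ribonucleoprotein, the particle that binds the branch point. SFPS and RRC1 are known for splicing that responds to the red light receptor phytochrome B during seedling greening. In ASpli, the program the authors used, a bin is an exonic or intronic segment, with coverage taken relative to the gene, and a junction region is a set of reads spanning an intron that compete with others. A bin has a log2 fold change, taken here as swap1sfpsrrc1 over sfpsrrc1 although the headers do not state the order, and a false discovery rate (FDR). Junction regions have a change in inclusion or participation, a difference of fractions without a sign. This value alone does not state which of both genotypes used the junction more.

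Of the mutated genes, SWAP1 (AT4G31200, chromosome 4, 15161600 to 15164936, minus strand) had called bins. Its exon bins of 1029 and 272 bases, toward the 3' end, were lower by a log2 fold change of -1.37 (FDR 8.96e-62) and -1.55 (FDR 7.14e-37) in the authors' deposited table, and 3 bins near the 5' end were higher, by 0.77, 1.27 and 1.02. The authors' deposited values for swap1 against WT in red light were -1.51, -1.47, 0.92, 1.70 and 1.13. None was called when rrc1 or sfps was the added mutation. The SWAP1 bins moved both ways, so they show a difference at this gene but not which group is the numerator. RRC1 had a called bin, its last intron, at 0.81 (FDR 9.57e-05) in the authors' deposited table, in a background where both groups carry rrc1-3. This bin was also called when rrc1 was the added mutation, at 0.69 (FDR 3.26e-04), and when sfps was, at 1.18 (FDR 8.00e-12), in the authors' deposited tables, which share the swap1sfpsrrc1 libraries. SFPS had no called region.

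The largest class in the table was junctions that match no annotated splicing pattern, and most of these ended at an acceptor that RefSeq (TAIR10.1) does not annotate, inside a longer annotated intron. Pairs of sequences show this. Each line gives the last 30 bases before the splice point and the 6 after it, on the gene's strand, with the acceptor AG in capitals.
FUG1 unannotated, chr1:5887470-5887505: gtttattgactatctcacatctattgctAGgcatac
FUG1 annotated, chr1:5887514-5887549: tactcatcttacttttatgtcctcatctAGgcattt
TPR3 unannotated, chr5:9512042-9512077: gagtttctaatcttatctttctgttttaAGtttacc
TPR3 annotated, chr5:9512001-9512036: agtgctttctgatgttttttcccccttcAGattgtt
UPF2 unannotated, chr2:16397444-16397479: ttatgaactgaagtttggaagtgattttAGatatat
UPF2 annotated, chr2:16397320-16397355: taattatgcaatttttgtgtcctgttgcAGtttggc
CCA1 unannotated, chr2:19246427-19246462: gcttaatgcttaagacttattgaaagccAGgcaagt
CCA1 annotated, chr2:19246833-19246868: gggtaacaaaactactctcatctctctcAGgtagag
FUG1 and CCA1 lie on the plus strand, TPR3 and UPF2 on the minus strand. The FUG1 and TPR3 pairs are among the largest changes in coding introns, and UPF2 and CCA1 are members of the gene lists described below. FUG1 encodes a translation initiation factor 2 protein, and its unannotated acceptor lay 44 bases before the annotated end of an intron of 169 bases. Its inclusion change was 0.857 (FDR 1.89e-51) in the authors' deposited table. This junction had 0.782 in the dark table and was not called for swap1 against WT in red light. For WT against swap1sfpsrrc1 in red light, which shares the swap1sfpsrrc1 libraries, it had 0.857 as well in the authors' deposited table. TPR3, a co-repressor of the TOPLESS family, had its site 41 bases before the end of an intron of 187 bases, with a change of 0.731 (FDR 1.43e-18) in the authors' deposited table.

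PRPS20, which encodes a protein of the small chloroplast ribosomal subunit, carried both kinds of signal in one intron. Its first intron of 149 bases is printed whole, with the donor, the unannotated acceptor and the annotated acceptor in capitals.
PRPS20 intron 1, chr3:5116406-5116554, plus strand: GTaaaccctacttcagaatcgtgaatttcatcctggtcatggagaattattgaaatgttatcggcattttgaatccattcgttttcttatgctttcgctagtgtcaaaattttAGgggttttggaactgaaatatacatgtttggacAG
In the authors' deposited table the intron bin had the lowest FDR of all intron bins, with a log2 fold change of 1.60 (FDR 2.82e-84). The junction ending 34 bases before the annotated acceptor had an inclusion change of 0.823 (FDR 1.62e-188) in the authors' deposited table. It was not called in the dark or for swap1 against WT in red light. For WT against swap1sfpsrrc1 in red light, which shares the swap1sfpsrrc1 libraries, it had 0.823 as well in the authors' deposited table. The neighbouring locus AT3G15200 overlaps the region, and reads of both loci were not told apart here. The bin counts reads anywhere in the intron, so the 34 bases between both acceptors belong to it as well.

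The authors' table sets apart 939 junctions of an alternative splicing pattern (ASP) that its own annotation lacks, called non-annotated ASP below. Of these 723 (77.0%) joined an annotated donor to an unannotated acceptor. An unannotated donor joined to an annotated acceptor made up 121, and neither site was annotated in 45. Both sites were annotated but not as a pair in 5, and the junction was an intron of the RefSeq annotation in 43. For 2 no locus was found among the nuclear genes of RefSeq. The annotation the authors counted on may differ from RefSeq, so "unannotated" refers to RefSeq. All 723 unannotated acceptors ended in AG, as did all those of each other comparison read, whether or not its groups differed in swap1. Of them 566 lay upstream of the annotated acceptor, a share of 78.3% (95% Wilson interval 75.1 to 81.1, counting error only). The other 157 lay downstream, past the annotated end of the intron. The upstream sites fell in 516 loci and lay a median of 119 bases before the annotated site, with quartiles of 57.3 and 242 bases, and only 18 were within 20 bases. The downstream sites lay close, at a median of 16 bases, with 89 of 157 within 20 bases. The upstream sites sat in long introns, with a median length of 300 bases and quartiles of 206 and 460, while introns followed by a downstream site had a median of 98 bases, against 102 for all annotated introns. An intron must be long to hold a site far upstream, so length and distance are not independent. Inclusion changes had medians of 0.377 for upstream and 0.389 for downstream sites in the authors' deposited table.

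**Figure D1:**
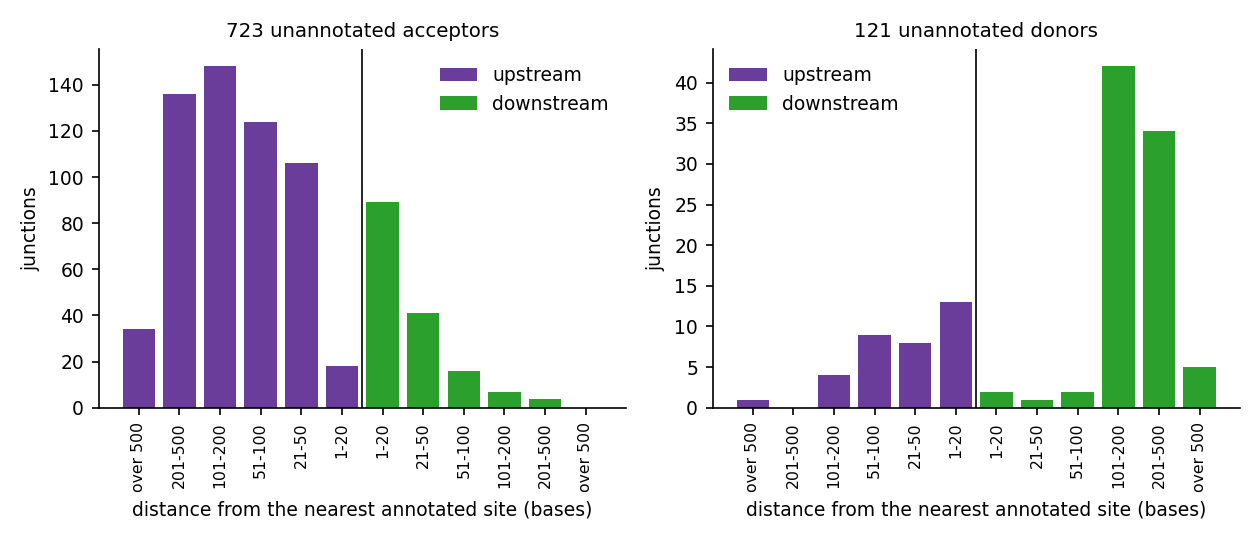
Number of junctions by the distance of an unannotated acceptor (left) or donor (right) from the nearest annotated site of the same intron, in bases, for sfpsrrc1 against swap1sfpsrrc1 in red light. Unannotated acceptors were mostly upstream (566 of 723) and unannotated donors mostly downstream (86 of 121), which both point into the annotated intron.

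The upstream acceptors resembled annotated acceptors in some bases and differed in others. In the 20 bases before the last 3 bases of the intron, C and T made up a mean of 61.9% at 566 upstream sites and 61.9% at the 550 annotated acceptors of the same introns, against 53.7% at 8773 other AG dinucleotides of these introns. The base before AG was C at 33.6% of upstream sites, compared with 70.0% of the annotated acceptors of the same introns, 62.9% of all annotated acceptors and 14.98% of the other AG. It was T at 47.7% of upstream sites and at 25.5% of the annotated acceptors beside them. G followed the AG at 24.6% of upstream sites, 47.8% of their annotated neighbours and 14.6% of the other AG. The motif CTAAC, searched on the gene's strand only as a match to the plant branch point consensus, was found in the 50 bases up to the splice point at 8.30% of upstream sites, 4.00% of the annotated acceptors of the same introns, 2.51% of the other AG and 5.09% of all annotated acceptors. The 157 downstream sites differed from the upstream ones, with 53.3% C and T, C before AG at 42.0% and another AG within those 20 bases at 77.7%, compared with 36.4% at upstream sites. Sites of the same locus share sequence, and these shares carry no test. At AT3G28550, an extensin-like gene with repeats, the unannotated and the annotated acceptor of an intron of 876 bases lie 150 bases apart in identical windows of 36 bases, so its junction reads could align in more than one way and its changes are uncertain.

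The share of upstream sites was set beside that in the other splicing tables of the series, each counted on its own. In the dark, sfpsrrc1 against swap1sfpsrrc1 had 960 of 1096 unannotated acceptors upstream (87.6%, interval 85.5 to 89.4). The wild type (WT) against swap1 had 1884 of 2291 in red light (82.2%, interval 80.6 to 83.8) and 2040 of 2391 in the dark (85.3%, interval 83.8 to 86.7). In the tables where light differed and not the genotype, the share was 12 of 123 in WT (9.76%, interval 5.67 to 16.3) and 39 of 176 in swap1 (22.2%, interval 16.7 to 28.9). Against swap1sfpsrrc1 in red light, the share was 12 of 104 for swap1sfps, where the added mutation is rrc1 (11.5%, interval 6.73 to 19.1), and 13 of 94 for swap1rrc1, where it is sfps (13.8%, interval 8.26 to 22.2). These last tables share the swap1sfpsrrc1 red light libraries with the comparison described here. The table of WT against swap1sfpsrrc1 in red light shares those libraries too, and its groups also differ in sfps and rrc1. It had 2427 of 3140 upstream (77.3%, interval 75.8 to 78.7). The tables of WT and swap1 share libraries with each other. In the 5 tables whose groups differed in swap1 most unannotated acceptors were upstream. In the 4 tables whose groups did not differ in it, most were downstream. The intervals of both sets of tables do not overlap, but they cover counting error only, and no test over libraries could be made.

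**Figure D2:**
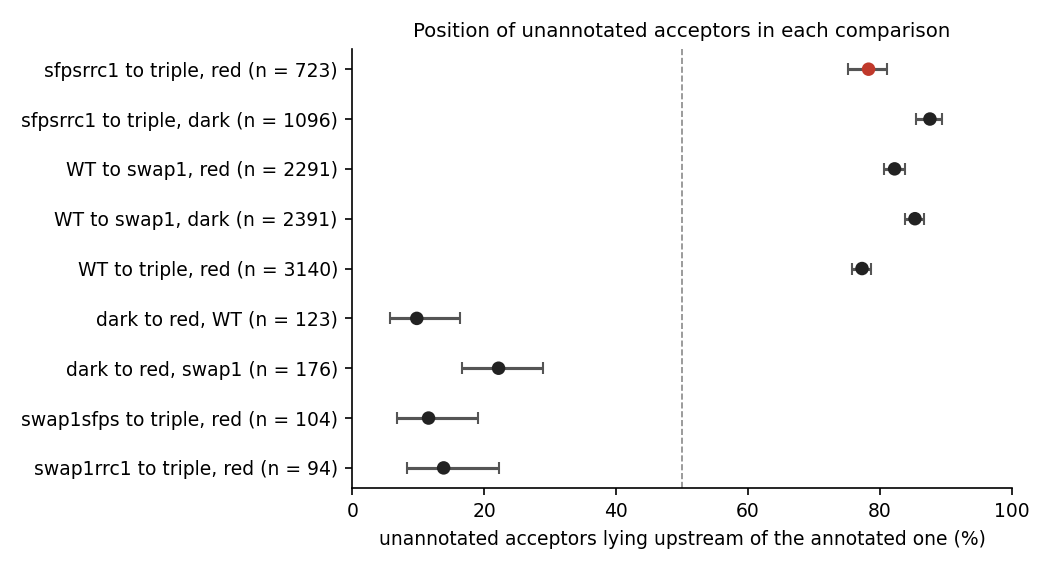
Share of unannotated acceptors lying upstream of the annotated acceptor (x axis, percent) in 9 deposited comparisons, with the number of such acceptors as n and 95% Wilson intervals for counting error as bars. The comparison described here, in red, is at 78.3%. The 5 comparisons whose groups differ in swap1 lie above the dashed line at 50% and the other 4 below it. WT to triple differs in sfps and rrc1 as well.

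Unannotated donors pointed into introns too. Of 121 such donors 86 lay downstream of the annotated one (71.1%, interval 62.5 to 78.4), at a median of 189 bases and in introns of a median of 425 bases. In 31 annotated introns of 31 loci an unannotated acceptor was followed by an unannotated donor, so that the pair bounded a stretch of a median of 36.5 bases (range 5 to 334 over 34 pairs), and 18 of 34 lengths were multiples of 3. No read was seen to span both junctions, so it is not known that they belong to the same transcripts. LNK1, a coactivator in the circadian clock, is an example. In the authors' deposited table its unannotated acceptor had a change of 0.421 (FDR 4.81e-11) and its unannotated donor 0.351 (FDR 6.54e-10), and they bound 27 bases within an intron of 220 bases. The line gives those 27 bases with 30 bases before and 6 after, and with the acceptor AG and donor GT in capitals.
LNK1, chr5:25673315-25673377, minus strand: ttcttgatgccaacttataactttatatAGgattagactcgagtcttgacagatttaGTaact
Other pairs with large changes in the authors' deposited table were at ABCB2, a transporter of the ABC family, with 0.706 for the acceptor and 0.562 for the donor around 18 bases, and at AT4G17140, with 0.552 and 0.669 around 114 bases. At DEG7, which encodes a protease of the Deg family, the acceptor changed by 0.643 and the donor by 0.398 in the authors' deposited table, around 42 bases.

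Coverage of introns was mostly higher when SWAP1 was lost in addition. Of 481 called intron bins 409 were higher in swap1sfpsrrc1 and 72 lower, a share of 85.0% higher (interval 81.6 to 87.9). The deposited table does not give the number of bins tested. Set against the 136306 introns of the RefSeq annotation, 0.353% were called, 0.3% higher and 0.0528% lower. The higher introns lay in 347 loci and the lower ones in 66. In the authors' deposited table the higher bins had a median log2 fold change of 0.75 (quartiles 0.65 and 0.98) and the lower ones -1.01 (quartiles -1.60 and -0.73), and 193 of the 409 higher but 18 of the 72 lower bins had an FDR below 0.001. Of bins that moved by 1 or more on the log2 scale, 99 of 137 were higher (72.3%, interval 64.2 to 79.1). Only 11 intron bins also had a junction signal in the same row, and 6 of those were higher.

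**Figure D3:**
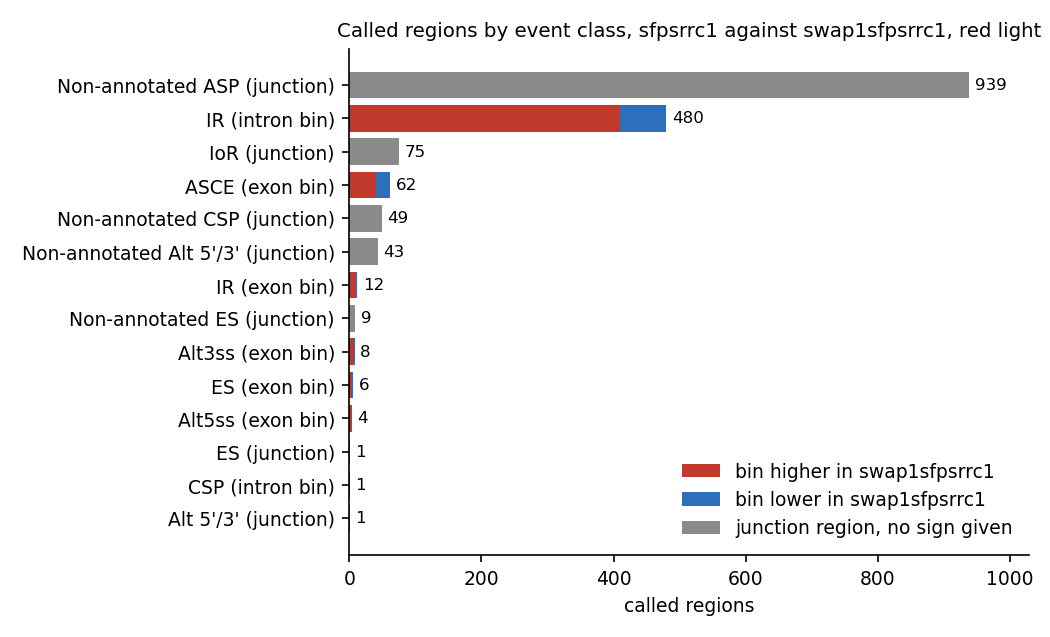
Number of called regions (x axis) in each event class of the authors' deposited table for sfpsrrc1 against swap1sfpsrrc1 in red light, with bins divided into higher (red) and lower (blue) in swap1sfpsrrc1 and junction regions, which carry no sign, in grey. The 939 non-annotated ASP junctions and the 480 retained intron (IR) bins make up most of the 1690 regions.

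The introns with higher coverage were longer than the rest. Of the intron bins 469 equalled an annotated intron (97.5%), 401 of them higher and 68 lower. The higher ones had a median length of 151 bases (quartiles 97 and 290) and the lower ones 93 bases (quartiles 82.8 and 126), while the 4498 uncalled introns of the same loci had 102 bases and all annotated introns 102. GC content differed little, with medians of 32.9% for higher, 32.4% for lower, 33.3% for the other introns of these loci and 32.8% for all. An intron of 300 bases or more was higher in 94 of 98 calls (95.9%), one of at least 100 but under 300 bases in 190 of 214 (88.8%) and one under 100 bases in 117 of 157 (74.5%). Of annotated introns under 100 bases 0.179% were called higher and 0.0613% lower, of those of 300 bases or more 0.514% higher and 0.0219% lower, so higher calls became more frequent with length and lower calls rarer. Among higher introns with a log2 fold change of at least 1 the median length was 101 bases. First introns made up 18.95% of the higher, 16.2% of the lower, 10.2% of the other introns of the same loci and 22.2% of all annotated introns, and last introns 16.96%, 23.5%, 8.76% and 20.4% in the same order. The other introns of these loci came from transcripts with a median of 16 introns, against 10 for the higher ones, so these shares are not compared at equal numbers of introns. Read through from the coding sequence before it, the intron held a stop codon in frame in 342 of 372 higher coding introns (91.9%), 55 of 65 lower ones (84.6%) and 89.0% of all annotated ones.

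**Figure D4:**
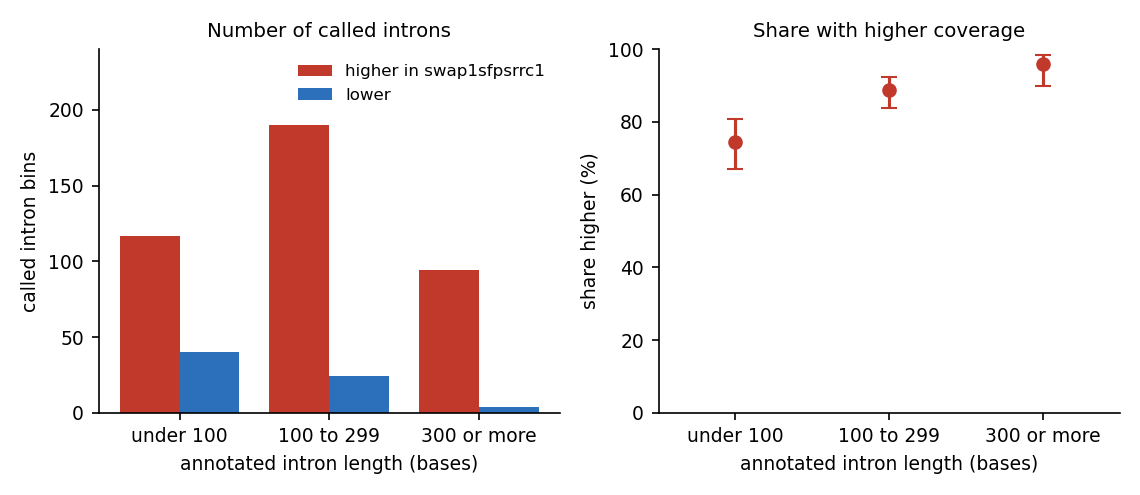
Called intron bins that equal an annotated intron, by intron length in bases: their number (left) and the share with higher coverage in swap1sfpsrrc1 (right, percent, bars are 95% Wilson intervals for counting error). The share higher was 74.5% under 100 bases and 95.9% at 300 bases or more.

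Unannotated acceptors and higher intron coverage met in the same introns. An unannotated acceptor was called inside 79 of the 401 higher introns (19.7%), in 0 of the 68 lower ones and in 31 of the 4498 other introns of the same loci (0.689%). Among the 99 higher introns with a log2 fold change of at least 1 it was 6 (6.06%). The lower introns had a median of 93 bases, whereas introns holding an upstream site had 300, so length differs between these sets as well. Seen from the junctions, 84 of the 566 upstream acceptors lay in a called intron bin, and all 84 of these bins were higher, with a median log2 fold change of 0.72. Of the 86 downstream donors 14 lay in a called bin, all higher. Coverage of an intron bin includes any part of the intron kept as exon, and full retention and use of an inner site were not told apart for these bins. The 315 higher introns with no unannotated site called inside had a median length of 112 bases, and 91 to 240 bases between quartiles.

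The higher introns of lowest FDR lay in 6 genes of transport, metabolism and the chloroplast ribosome, PRPS20 (above) among them. CAT2, a cationic amino acid transporter, had a log2 fold change of 1.13 in its last intron (FDR 3.74e-74) in the authors' deposited table, with 1.33 in the dark table and 1.43 for swap1 against WT in red light. SWEET17, a sugar transporter of the vacuole, had 0.99 (FDR 1.37e-61), 0.96 in the dark table and 1.86 for swap1 against WT in the authors' deposited tables. ACR12, an ACT domain protein, had 0.97 (FDR 2.62e-56), 0.88 in the dark and 2.74 for swap1 against WT in the authors' deposited tables. VHA-C3, a subunit of the vacuolar proton pump, had 0.90 (FDR 5.55e-56), 0.96 and 1.72 in the same order in the authors' deposited tables. FATB, a thioesterase that releases saturated fatty acids in the chloroplast, had 1.1 (FDR 3.38e-49), 1.18 and 0.85 in the authors' deposited tables. The PRPS20 bin had 1.19 (FDR 0.0429) for swap1 against WT in the authors' deposited table and was not called in the dark, unlike the other 5. The change on losing SWAP1 from WT was the larger one for CAT2, ACR12, SWEET17 and VHA-C3, and the smaller for PRPS20 and FATB. The tables with swap1sfps or swap1rrc1 as the first group called none of these 6 bins.

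Introns with lower coverage were fewer, and their lowest FDR values came from a small number of loci. AT5G53050, a hydrolase of the alpha/beta family, had an intron at a log2 fold change of -1.73 (FDR 7.87e-31) and another at -1.25 (FDR 1.15e-18) in the authors' deposited table, with -1.36 and -0.74 in the dark table. The second is an intron of some annotated transcripts only, and lies within exon 7 of 9 of the transcript with the longest coding sequence. The locus AT5G53048 overlaps it. The longest of these lower introns, of 850 bases, is bin I014 of AT3G53090. The authors list it under the overlapping locus AT3G53100, a GDSL-type lipase, but it lies within no annotated exon or intron of AT3G53100. This bin had -0.65 (FDR 1.09e-18) here, -0.66 in the dark and -0.62 for swap1 against WT in the authors' deposited tables. An intron of AT4G26600, an S-adenosylmethionine-dependent methyltransferase, had -1.42 (FDR 3.16e-08), and an intron of 5PTase14, an inositol polyphosphate phosphatase, -0.98 (FDR 6.96e-09) in the authors' deposited table. AT1G74460, of the same lipase family, had -1.44 (FDR 1.83e-09) here and -1.48 in the dark but 0.65 for swap1 against WT in red light in the authors' deposited tables. The sequences of the short introns among these are printed for comparison with the higher intron above, with donor and acceptor in capitals.
AT5G53050, chr5:21510731-21510837, minus strand: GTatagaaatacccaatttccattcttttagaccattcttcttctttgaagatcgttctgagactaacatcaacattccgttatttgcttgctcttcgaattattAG
AT5G53050, chr5:21511544-21511669, minus strand: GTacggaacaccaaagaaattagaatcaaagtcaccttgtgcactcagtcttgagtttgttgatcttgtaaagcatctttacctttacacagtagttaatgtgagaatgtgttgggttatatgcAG
AT4G26600, chr4:13422636-13422713, plus strand: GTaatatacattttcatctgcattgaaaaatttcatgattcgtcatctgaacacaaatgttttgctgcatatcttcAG
The largest log2 values came with higher FDR values. SHP1, a MADS-box factor of fruit development, had an intron at 4.32 (FDR 1.81e-04) in the authors' deposited table. AT4G09430, a disease resistance protein of the TIR-NBS-LRR class, had one at 4.14 (FDR 7.90e-04) there, and both were overlapped by another locus. The AT4G09430 bin also had 4.28 (FDR 0.00326) in the authors' deposited table where sfps was the added mutation, which shares the swap1sfpsrrc1 libraries. The largest falls were an exon of TBL43, a TRICHOME BIREFRINGENCE-LIKE protein, at -4.15 (FDR 3.14e-04) and introns of AT1G49940 at -3.96 (FDR 0.00218) and NSP3, a nitrile specifier protein of glucosinolate breakdown, at -3.90 (FDR 0.00225) in the authors' deposited table. None of these last 3 bins was called in the dark or for swap1 against WT. The largest rise of all bins was an exon of M17, a late embryogenesis abundant protein, at 5.38 (FDR 2.14e-07) in the authors' deposited table, also not called in either table. One further bin, an intron of AT1G58725 classed as a canonical splicing pattern (CSP), had -2.27 (FDR 0.0159) in the authors' deposited table, and since the gene has near-identical copies its reads may be shared and its value is uncertain.

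Exon bins numbered 92 and moved both ways. Those of the class ASCE (splicing that affects a consensus exon) comprised 38 higher and 24 lower bins in 32 loci. BOR4, a borate transporter, held 13 called bins, more than any other locus, and all were higher. Its 10 exon bins had log2 fold changes from 2.93 to 3.35 and its 3 intron bins from 2.60 to 3.40 in the authors' deposited table. When swap1 was compared with WT in red light, 11 of the 13 bins were called, from 2.92 to 4.204, and in the dark comparison of sfpsrrc1 with swap1sfpsrrc1 none was. Exons and introns of BOR4 thus moved by like amounts relative to the gene, and a change of splicing was not told apart from other changes in its coverage. All 10 of its exon bins, and the 5 of AT1G14810 given below, are among the 38 higher ASCE bins. ATSPS4F, a sucrose phosphate synthase, had 10 higher introns from 0.62 to 1.15 in the authors' deposited table, of which 6 were called in the dark (0.65 to 0.80) and 4 for swap1 against WT (0.64 to 0.80). AT1G14810, of the semialdehyde dehydrogenase family, had 5 exon and 4 intron bins higher by 0.74 to 1.00 in the authors' deposited table, called in neither other table, and AT1G14800 overlaps it. Altogether 962 of the 1242 loci held a single called region.

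The small annotated classes were mostly higher. Alternative acceptor (Alt3ss) bins were higher in 7 of 8, alternative donor (Alt5ss) bins in 3 of 4 and skipped exon (ES) bins in 4 of 6. SWAP1 itself gave one of the Alt3ss and one of the Alt5ss bins. A skipped exon of 31 bases in AT1G65820, a microsomal glutathione S-transferase, had a log2 fold change of 1.20 (FDR 1.22e-41) in the authors' deposited table, 1.41 in the dark and 1.39 for swap1 against WT. APY2, an apyrase, had 2 such bins, at 0.77 (FDR 2.39e-10) and 0.61 (FDR 8.14e-07) in the authors' deposited table. An alternative acceptor bin of AT1G18070, a translation factor of the EF1A family, had 0.66 (FDR 2.53e-11) here and 2.11 for swap1 against WT in the authors' deposited tables, and one of AT1G10590, a nucleic acid binding protein, 0.67 (FDR 9.98e-12). The alternative donor bin of AT1G52100, a lectin, had 0.65 (FDR 3.13e-20) and that of AT4G25090 3.82 (FDR 0.00674) in the authors' deposited table. An exon bin labelled as retained intron in AT3G13580, a ribosomal protein L30/L7, had 1.20 (FDR 1.04e-37), and one of MSRB2, a methionine sulfoxide reductase of the chloroplast, 0.72 (FDR 9.64e-14) in the authors' deposited table, against 1.90 for MSRB2 in swap1 over WT. The remaining junction classes were IoR, which the table does not spell out, with 75 regions, non-annotated CSP with 49, non-annotated Alt 5'/3' with 43 and non-annotated ES with 9, and ES and Alt 5'/3' with 1 each. Their largest changes in the authors' deposited table were 0.773 for IoR, 0.909 for non-annotated CSP at AT1G12310, a calcium-binding protein, 0.793 for non-annotated Alt 5'/3' at AT3G19390, a protease, and 0.563 for non-annotated ES at AT2G26780. The IoR region, at CAC2, also had 0.773 in the authors' deposited table where rrc1 was the added mutation, which shares the swap1sfpsrrc1 libraries.

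Members of 10 gene lists were looked up. Of 159 listed genes with an intron 17 had a called region (10.7%), against 5.08% of all 24197 annotated loci with an intron, and 3 of these were called through a bin. The 17 include SWAP1 and RRC1 of the 3 mutated genes, and without that list 15 of 156 were called (9.62%). Splicing factors had 6 of 32, SR proteins 2 of 20, the nonsense-mediated decay and RNA decay genes 2 of 4, flowering genes 2 of 15, clock genes 2 of 23 and chlorophyll genes 1 of 15. Photoreceptors had 0 of 9, light signalling genes 0 of 31 and seed storage genes, which stand for embryo tissue, 0 of 7. For swap1 against WT in red light the same counts were 18 of 32 splicing factors, 17 of 20 SR proteins, 2 of 9 photoreceptors and 10 of 31 light signalling genes, against 25.1% of loci. The lists were not tested against other genes.

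Upstream unannotated acceptors were 12 of the 16 non-annotated ASP junctions of listed genes, in 10 genes, where over the whole table they were 566 of 939 (60.3%). UPF2, a core factor of nonsense-mediated decay, had 2 such sites, with changes of 0.590 (FDR 3.27e-26) and 0.397 (FDR 2.18e-12) in the authors' deposited table, the first also called in the dark (0.568) and for swap1 against WT (0.568). Its partner UPF3 had an acceptor 122 bases downstream instead, with 0.461 (FDR 2.04e-26) in the authors' deposited table. That junction was not called in the dark or for swap1 against WT, and had 0.461 in the authors' deposited table where rrc1 was the added mutation, which shares the swap1sfpsrrc1 libraries. CCA1, a MYB factor of the morning loop of the clock, had a site 406 bases upstream in an intron of 478 bases, with 0.465 (FDR 4.20e-13) here and 0.416 for swap1 against WT in the authors' deposited tables. FCA, an RNA-binding promoter of flowering whose own intron 3 is a known site of alternative processing, had a site 323 bases upstream in that intron of 2075 bases, with 0.397 (FDR 1.78e-11), and another in intron 18, with 0.325 (FDR 7.66e-05) in the authors' deposited table. The full FCA intron 3 junction was called as well, with a participation change of 0.405 (FDR 1.22e-10) in the authors' deposited table.

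Among the SR proteins, which bind exons and guide splice site choice, RS41 had a site 449 bases upstream in its first intron of 642 bases. Its change was 0.336 (FDR 1.43e-12) here, 0.556 in the dark and 0.793 for swap1 against WT in the authors' deposited tables. RSZ21 had one 26 bases upstream, with 0.350 (FDR 0.00305) in the authors' deposited table. Of the splicing factors, PRP40B and LUC7B, relatives of U1-associated proteins, had sites 31 and 37 bases upstream with changes of 0.457 (FDR 2.40e-08) and 0.303 (FDR 0.00116) in the authors' deposited table. SUA, a splicing regulator known from seed maturation, had 0.304 (FDR 0.00691) and CBP80, a subunit of the cap-binding complex, 0.376 (FDR 1.81e-05) in the authors' deposited table. PRL1, a subunit of the NineTeen-associated complex, had a donor 111 bases downstream in intron 2 with 0.476 (FDR 1.21e-05), and the bin of that intron was higher by 0.80 (FDR 0.00718) in the authors' deposited table. RBM25 had a non-annotated ES junction at 0.463 (FDR 7.38e-04), MAF5, a MADS-box flowering repressor, a junction with neither site annotated at 0.343 (FDR 4.98e-04), and GUN5, the H subunit of magnesium chelatase, a non-annotated CSP junction at 0.461 (FDR 3.51e-40) in the authors' deposited table.

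No gene ontology term passed an adjusted p-value of 0.05 in the authors' deposited table, which lists 1129 terms over 504 genes. The lowest value was 0.0855, reached for terms of at least 10 genes by biosynthetic process with 12 genes and a relative enrichment ratio of 3.27. Tied at 0.128 in the authors' deposited table were mRNA splicing via spliceosome with 12 genes and a ratio of 2.73, meiotic cell cycle with 11 and 2.73, chromatin organization with 19 and 2.02, cell division with 20 and 1.96, metabolic process with 27 and 1.77, and protein transport with 32 and 1.76. In the splicing term all 12 genes had a junction region, and 2 intron bins were called, PRL1 at 0.80 and an intron of U2B'', a protein of the U2 particle, at -0.63 (FDR 3.72e-05) in the authors' deposited table. That U2B'' bin was at -0.72 in the dark table and -0.65 for swap1 against WT in red light. The background of this enrichment is not named in the table.

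The same allele was added in the dark to the same background, in libraries other than the 6 compared here, and some values of that table were given above. Of 573 bins called in red light 155 (27.1%, interval 23.6 to 30.8) were also among the 586 called in the dark (26.5% of those), and 154 of them had the same sign. As a background, the dark table called 0.369% of annotated introns, 0.304% higher and 0.0653% lower, and 6.19% of loci with an intron, 1.91% through a bin and 5% through a junction region. Median absolute log2 fold changes of the shared bins were 0.77 in red light and 0.80 in the dark. Higher introns were shared more often than lower ones, 118 of 409 (28.9%, interval 24.7 to 33.4) against 8 of 72 (11.1%, interval 5.74 to 20.4). The higher introns also had the lower median FDR here, 0.00192 against 0.00684 for the lower introns, and both sets were not matched for it. Upstream unannotated acceptors were shared in 367 of 566 cases (64.8%, interval 60.8 to 68.7) and downstream ones in 14 of 157 (8.92%, interval 5.39 to 14.4), where the dark table held 960 and 136. For the shared upstream sites the median change was 0.385 in red light and 0.440 in the dark in the authors' deposited tables, and 111 of 367 were larger in red light. The only bin of opposite sign was intron bin I003 of AT5G01600, the ferritin gene FER1, overlapped by AT5G01595, at 0.60 (FDR 1.53e-18) in red light and -0.73 (FDR 3.17e-27) in the dark in the authors' deposited tables. The difference between red light and dark was not tested for any bin.

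The loss of SWAP1 from WT in red light, also in other libraries, called many more regions, 12488 in 6123 loci, with a bin FDR threshold of 0.05 rather than 0.03. There 7426 of 7799 intron bins were higher (95.2%, interval 94.7 to 95.7), which is 5.72% of annotated introns called, 5.45% higher and 0.274% lower, while 21.1% of loci with an intron had a bin and 10.2% a junction region. Of the 573 bins described here 232 (40.5%, interval 36.6 to 44.6) were among its 8650 (2.68% of those), and 222 had the same sign. All 180 shared introns that were higher here were higher there, whereas of 13 shared introns that were lower here 8 were lower there and 5 higher. The shared bins had a median absolute log2 fold change of 0.73 here and 0.96 there, and 56 of 232 were larger here. Upstream unannotated acceptors were shared in 330 of 566 cases (58.3%, interval 54.2 to 62.3) and downstream ones in 14 of 157 (8.92%). Bins of opposite sign included an exon bin of APD4 at 1.82 here and -2.21 there, an intron of DTX1, a transporter of toxic compounds, at -0.96 and 1.12, and 3 bins of AT1G74460 in the authors' deposited tables. In all, 110 bins were called in these 3 tables, 108 of them with the same sign in each, and 296 of the 573 (51.7%) were called in neither of the other tables. Pearson's r over shared bins was 0.83 with the dark and 0.74 with swap1 against WT, given as a description over bins that had to pass a fold threshold in both tables.

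**Figure D5:**
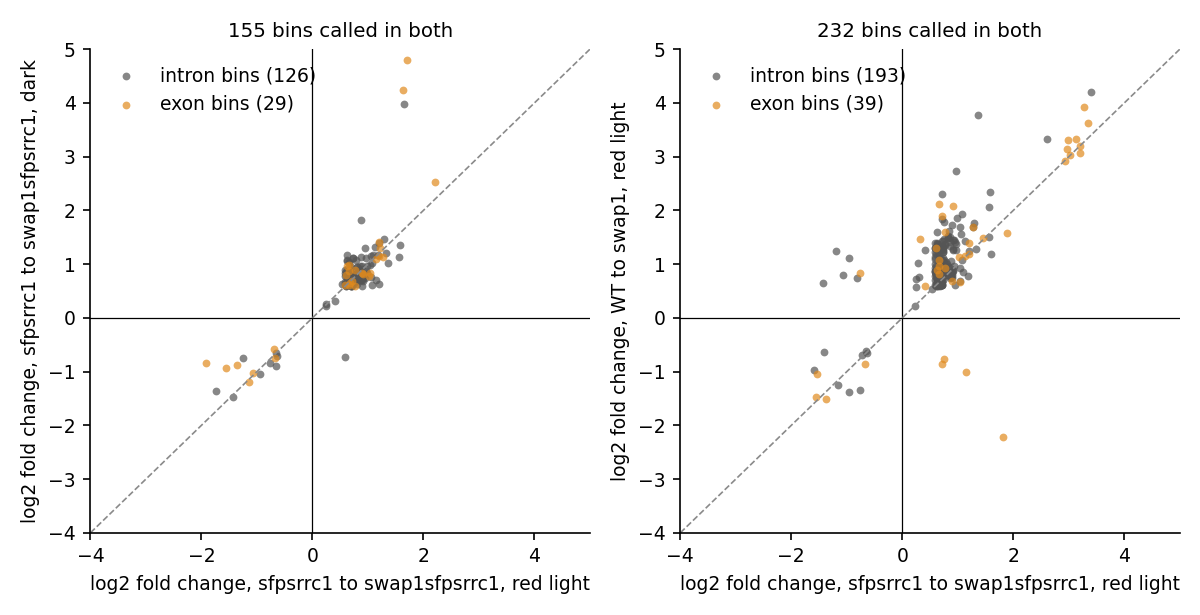
Log2 fold change of bins called in red light for sfpsrrc1 to swap1sfpsrrc1 (x axis) against that in the dark (left, 155 bins) and against that from WT to swap1 in red light (right, 232 bins), with introns in grey, exons in orange and the dashed line marking equal values. On the left 154 bins, and on the right 222, lie in a quadrant of equal sign.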

How the data were processed

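Tools named in the submitters' processing notes are STAR, HTSeq, DESeq2 and FastQC, with the build TAIR10, and the design text names ASpli. Which versions were run, and whether strand was used, is not given. Per the file headers, the deposited splicing tables give for bins a log2 fold change and an FDR, a p-value adjusted by the authors. For junction regions the authors deposited a likelihood ratio score, an FDR, and changes in inclusion or participation, each a difference of fractions. Per the file headers, calls needed a bin fold of 1.5 and an FDR of 0.03 (0.05 where WT and swap1 were compared), or a junction FDR of 0.01 and change of 0.3; 11 bins here lie below the fold. The deposited gene ontology tables give adjusted p-values and enrichment as a ratio. That table's header cites the dark comparison, but all 504 of its genes are in the red light table and 261 in the dark one.

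The headers do not state the numerator. In the authors' deposited expression table of WT, known light genes read as red light over dark, since light-induced LHCB1.1 had a log2 fold change of 4.16 and light-repressed PIL1 one of -4.68. Of 16 bins in exons of one called transcript and not of another, 13 moved with that transcript as second over first group in WT in the dark against red light. The same order was assumed for the comparison described here, where the SWAP1 bins did not settle it.

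Junction ends were compared with RefSeq TAIR10.1 introns in Python 3.11.15 (pandas 2.3.3, scipy 1.17.1) and checked on simulated junctions. The members, gene lists and rules for named genes were chosen with earlier results of these data known. Named were list members, the 6 intron bins of lowest FDR in each direction, 4 bins or regions of each other class, the 3 loci with most regions and the 3 largest changes each way. The acceptor comparisons, and the pairs FUG1, TPR3, ABCB2, AT4G17140 and DEG7, were chosen after values were seen. No test over libraries was possible. Of the regions here, 302 overlap a second locus.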

Additional observations from a re-analysis of the deposited data

How the results depend on the processing

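No paired analysis was possible because the deposited tables hold no value for a single library, and for the same reason no library could be left out. With a bin FDR below 0.01 and a junction FDR below 0.001, 1390 of 1690 regions remained. Requiring a change of 1 or more on the log2 scale, intron bins fell from 481 to 137 and exon bins from 92 to 49, and the 92 exon bins lay in 54 loci. The share of higher introns was 85.0%, 72.3% among changes of 1 or more, 73.6% at 2 or more (chosen after seeing the data) and 54.5% in the 11 bins with junction support. It lay between 84.1% and 87.9% in the other alternatives, including 85.0% without overlapping loci, also chosen after seeing the data. Bins shared with the dark were 27.1%, 33.02% with an FDR below 0.01 in both tables and 31.5% counted as loci. Bins shared with swap1 against WT were 40.5%, and 64.4% as loci, with 97.8% of one sign at an FDR below 0.01. Through bins alone, 3 list members were called instead of 17. The share of upstream acceptors stayed between 76.6% and 78.5% in 4 alternatives chosen after seeing the data. Depth is unknown, so a region not called may lack reads.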

Other observations

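Among the called junctions 11 began with CT and ended with AC when read on the strand of their locus, 10 of them non-annotated ASP, and 2 of the 11 had another locus overlapping. The called regions were spread over all chromosomes, with 479 on chromosome 1, 247 on 2, 328 on 3, 240 on 4 and 395 on 5, and 1 region of the mitochondrial genome was in the table. Of the 409 loci with a called intron bin, 361 had 1 and ATSPS4F had 10.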
